A study of Zea mays with 6 samples.

Results

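The untreated mesocotyl of deep-sown maize was profiled from the 2 control arrays of a series of 6, which correspond to 2 samples that the labels call biological replicates. The plants were of the maize inbred line 3681-4, were sown at a depth of 20 cm, were kept in darkness and were harvested 10 days after sowing, without added gibberellin and without the gibberellin synthesis inhibitor that other plants of the series received. Total RNA of mesocotyls was labelled and hybridized to a maize oligonucleotide array, on which each transcript is read by 1 or more probe sets, each a group of short probes that yields 1 signal. Of the 17734 probe sets in the table, 17555 were ranked by the mean of log2(signal + 16) over both arrays. The 113 control probe sets of the manufacturer and 66 probe sets for reporter genes that maize does not carry were left out. A name was available for few of them: 1452 probe sets belonged to 1 gene, 1 to several and 16102 to none. They stood for 1108 genes, of which 972 had a gene name other than a LOC number and are called characterised below, each represented by its brightest probe set. The number of plants behind each sample is not given in the sources used here, and 2 arrays limit the precision of every value.

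The mesocotyl is the internode of a grass seedling that lies between the seed and the base of the coleoptile. In darkness it elongates and carries the shoot towards the soil surface, and light stops its growth. Elongating cells take up water through aquaporins, loosen their walls with expansins, lay down cellulose along tracks set by cortical microtubules, and draw sugar from the seed through sucrose synthase and invertase. Gibberellins are plant hormones that promote this kind of growth.

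Signals fell into 4 bands. The most abundant band was the top 1% of ranked probe sets (176), and the bright band was the rest of the top 10% (1580). The limit for the near background band was the 95th percentile of the reporter probe sets, a log2 value of 4.81 or a signal of 12.1, and 2855 ranked probe sets lay at or under it. The moderate band held the other 12944 probe sets. The median signal of the reporter probe sets was 3.04 on replicate 1 and 1.89 on replicate 2, against 201 and 205 for the ranked probe sets. Of the reporter probe sets, 4 lay above the limit, and the brightest of them gave 8512 and 9608, while the next gave 52.0 and 45.8. Probe sets differ in how strongly they bind their target, so a rank orders signals and not numbers of transcripts. Pairs of values joined by a slash give the signal on replicate 1 and then on replicate 2. In whole mesocotyls, a low signal from few cells of a type and one from little RNA per cell cannot be told apart.

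The most abundant band held 11.9% of the summed signal, the bright band 42.5%, the moderate band 45.4% and the near background band 0.15%. Of the 972 characterised genes, 39 (4.01%) were in the most abundant band, 165 (17.0%) in the bright band, 675 (69.4%) in the moderate band and 93 (9.57%) in the near background band. The most abundant band had 130 probe sets with no gene name, among them the brightest of all, with signals of 12478 and 13254. The named genes are therefore a minority of what was bright in this tissue.

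The 2 arrays gave similar levels for most probe sets. Across the 17555 probe sets, which share their library and are not independent, Pearson's r was 0.985 and Spearman's rho was 0.983 between the arrays. The same band was found on both arrays for 92.0% of probe sets, and none was most abundant on 1 array and near background on the other. Of the 176 probe sets in the top 1% of each array, 138 were shared (78.4%), and of the 1756 in the top 10%, 1604 were shared (91.3%). The near background lists of the single arrays held 3074 and 3189 probe sets and shared 2611, which is 84.9% of the list of replicate 1 and 81.9% of that of replicate 2. The pooled SD between arrays was 0.156 on the log2 scale in the most abundant band, 0.259 in the bright band, 0.292 in the moderate band and 0.270 in the near background band. The 3′/5′ signal ratios of control probe sets, a measure of RNA integrity, were highest for actin, at 3.58 on replicate 1 and 2.76 on replicate 2. They were 2.19 and 1.955 for GAPDH and 1.35 and 1.46 for cyclophilin. For each transcript the 3′ end gave the stronger signal on both arrays.

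At least a 2-fold difference between the arrays was found for 294 probe sets (1.67%), of which 204 (1.16%) were higher on replicate 2 and 90 (0.513%) on replicate 1. With 1 array per replicate this difference has no test. The widest differences ran 1 way: 72 probe sets were at least 4-fold higher on replicate 2 and 5 on replicate 1, and 38 were at least 8-fold higher on replicate 2 and none on replicate 1. None of those 4-fold or more apart had a gene name. Of the 72, 67 had an identifier that starts with ZmAffx, a prefix carried by 2179 of the ranked probe sets (12.4%). Of those with this prefix 7.07% were at least 2-fold apart, with r = 0.931 between the arrays, and of the other 15376, all with the prefix Zm, 0.911% were, with r = 0.989. The widest single difference was from 26.7 on replicate 1 to 6586 on replicate 2.

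Among characterised genes, by their brightest probe set, 2 of 972 (0.206%) reached a 2-fold difference, and both lay close to the background limit. The gene of the liguleless transcription factor lg1 gave 3.21/29.9, under the limit on replicate 1 and above it on replicate 2. The floral MADS-box gene ZAG1 gave 26.4/4.37, the other way round. The next in order of difference was the tonoplast aquaporin TIP2-3, whose signal was 166/75.3, higher on replicate 1.

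Of the 10 genes with the largest differences above the limit, 3 more were well above it: the glutamine synthetase gene gln5 gave 2064/1186, the glutathione S-transferase gst12 gave 1116/590.4 and GR2b gave 509.6/291. All 3 were higher on replicate 1. The anthocyanin regulator c1 gave 9.50/34.2, the plastid sigma factor gene sig3 gave 36.4/80.4 and the retinoblastoma-related gene RBR2 gave 27.02/57.7, and these 3 were higher on replicate 2. The oxophytodienoate reductase gene opr3 gave 33.6/11.3, higher on replicate 1.

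**Figure D1:**
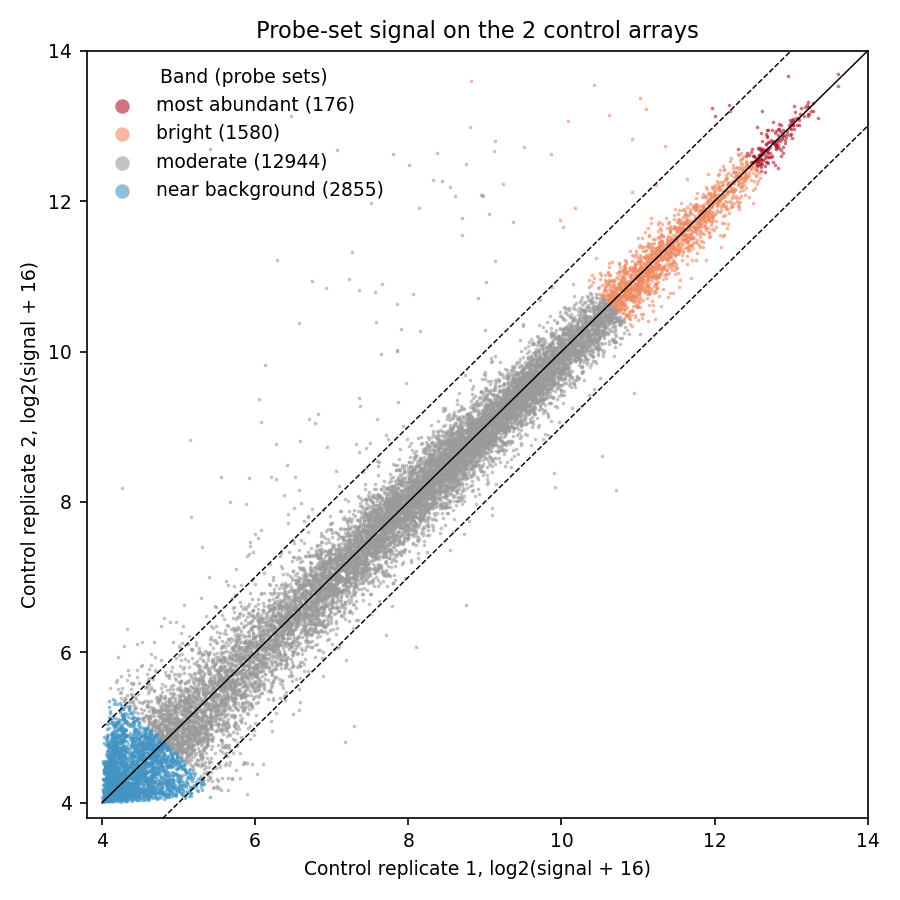
Signal of the 17555 ranked probe sets on control replicate 1 (x axis) and control replicate 2 (y axis), both as log2(signal + 16), coloured by band. The solid line marks equal signal and the dashed lines a 2-fold difference; 294 probe sets lie on or beyond the dashed lines, and the far points lie above the diagonal, where replicate 2 is higher.

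The 20 brightest characterised genes were of mixed function. Cab-m7, which encodes a chlorophyll a/b-binding protein, gave 12448/11776 (12112 ± 475, SD, n = 2) and had rank 2 among all ranked probe sets. It was followed by TCTP, the translationally controlled tumour protein, at 9490.1/10177. The lipid transfer protein gene PLTP gave 9631/9774. These genes differed little between the arrays, and the largest difference among the 39 most abundant genes was 1.19-fold.

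The next signals were those of grp1 (9502/9782), umi11, which the gene table also lists as cyclotide (9244/9732), and psaN, a subunit of photosystem I (9612/9113). The gene sam2 gave 9516/9159.8 and GOS2, a translation initiation factor, gave 8964/9674. The glutathione S-transferase gst1, which conjugates glutathione to reactive compounds, gave 9519/8990.4. All 6 were within the most abundant band on both arrays. The chromatin protein MNB1b, of the high mobility group, gave 8858/9111, and the cysteine protease ccp1 gave 8314/8757. A second lipid transfer protein gene, plt2, gave 8311/8248.

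Among the remainder, the alpha-tubulin tua4 gave 8198/7965. Of the aquaporins, the plasma membrane protein PIP1-1 gave 8115/8019, and the tonoplast proteins tip1 and tip2a gave 7718/7202 and 7719/6995. Light harvesting and photosystem I were represented again by psaH, at 7904/7604, and lhcb5, at 7518/7628. The stress- and ripening-associated gene asr1 gave 7106/7807 and the translation factor eif5a gave 7497/7399.

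The order among these 20 genes is loose. Of the 19 gaps between neighbours, 1 was larger than the pooled SD of the band: Cab-m7 stood 0.30 above TCTP on the log2 scale. The next largest gap was 0.074. From TCTP down to tip2a, no gap between neighbours was larger than that pooled SD. The SD covers all 176 probe sets of the band, of which 4 were at least 2-fold apart between the arrays. The characterised genes of the band lay closer, with a median difference of 1.03-fold, so the SD is a wide measure for them. Of the 39 most abundant genes, 24 were read by an ordinary probe set, 9 by one that covers several transcripts of a gene, 3 by one shared by several genes of a family and 3 by one with some probes that match other sequences. TCTP belongs to the last kind and PLTP and grp1 to the one before, so their signal may include related transcripts.

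**Figure D2:**
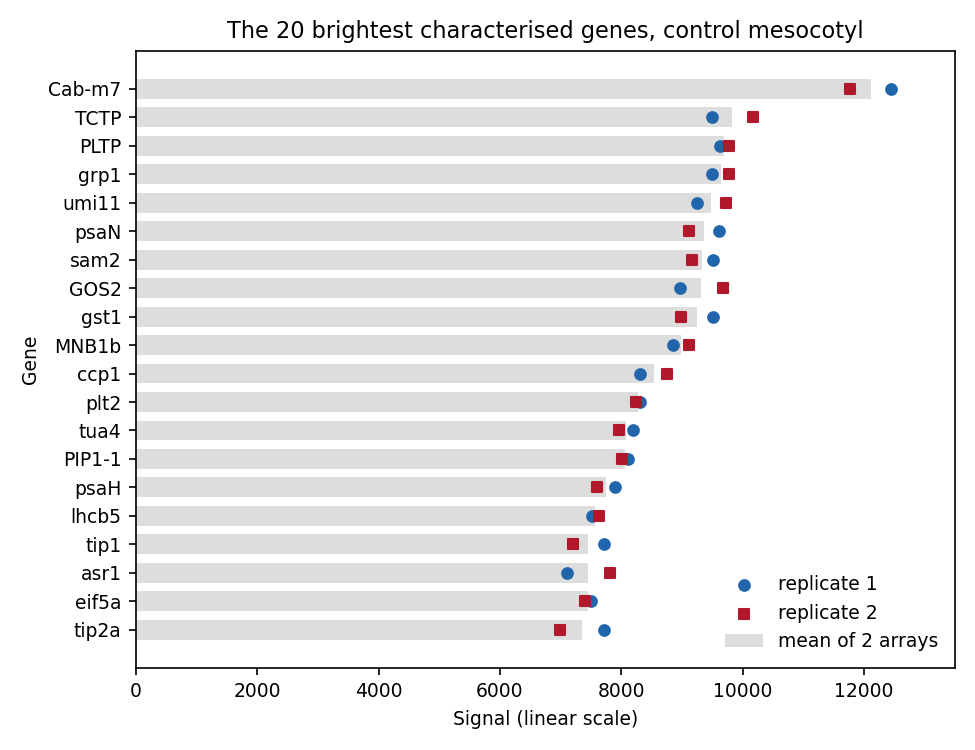
Signal on a linear scale (x axis) of the 20 brightest characterised genes (y axis), with the mean of the 2 control arrays as a bar from 0 and each array as a point. Cab-m7 stands apart at 12448/11776, and the other 19 genes form a gradual slope down to tip2a.

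The median characterised gene above the limit, over 879 genes, had a signal of 522. The 10 genes nearest that level had varied roles. The SET-domain gene set105, of a family that methylates histones, gave 524/519.9, and the homeobox gene hox3 gave 503/539. The thylakoid transport gene hcf106, which acts in the twin-arginine pathway, gave 555/505, and tha9 of the same list gave 486/553. The small basic intrinsic protein SIP1-1, an aquaporin, gave 591/467. The single-myb-histone gene smh4 gave 519/534 and pdlk2, which the gene table also lists as PDK2, gave 662/402. AGA3b gave 484/562, isr1 gave 542/499 and NRH2b gave 522/516.

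At the other end, 93 characterised genes had every probe set near background. The lowest were lec1, with 0.686/0.646, and ns2, with 0.920/0.441, the latter a WOX homeobox gene of leaf margins. Also among the 10 lowest were ae1 (0.942/1.01), the reproductive gene mgs2 (0.995/0.981) and the beta-expansin lop1 (0.868/1.14). Of the kernel genes, the zein storage protein genes z1D_2 and z1C1_12 gave 0.847/1.44 and 1.82/0.919, and the basal transfer layer gene bap-3a gave 0.184/2.81. The sodium/proton exchanger NHX6 gave 1.20/1.51 and LIM1 gave 1.76/1.12. These signals were all under the reporter limit on both arrays and have no order among themselves.

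Genes on the edges of the bands were close together. The last characterised genes inside the most abundant band were GRP, PAL1 and psei1, at 6107/5910.3, 5920.3/6066 and 6167/5714. Just outside were RPL10, elfa3 and cys2, at 5189/6355, 5865/5605 and 5977/5443. At the background limit, TPS9, ae3 and GA20 lay just above, at 13.97/11.7, 14.8/9.94 and 7.48/17.9, and zmm31, NR and Bk2L6 just below, at 6.35/18.8, 13.7/10.2 and 4.92/20.97. Each of these 6 genes was above a signal of 12.1 on 1 array and below it on the other, so their band is not settled by the 2 arrays.

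Of the 972 characterised genes, 640 were placed in 47 lists by function, each described by the percentile of its members among the 17555 ranked probe sets. Over all characterised genes the median percentile was 65.9. Band counts of a list stand beside the shares of all characterised genes: 4.01% most abundant, 17.0% bright, 69.4% moderate and 9.57% near background. The median member was in the top 10% in 7 lists: leaf photosynthesis (98.2), translation factors (97.7), tubulins (97.3), ribosomal proteins (96.2), antioxidant enzymes (91.6), cellulose synthases with COBRA-like proteins (91.4) and histones with HMG proteins (91.4). At the low end were flavonoid and anthocyanin genes (21.6), MADS-box genes (16.6), kernel storage and endosperm genes (12.4) and other reproductive genes (11.1).

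**Figure D3:**
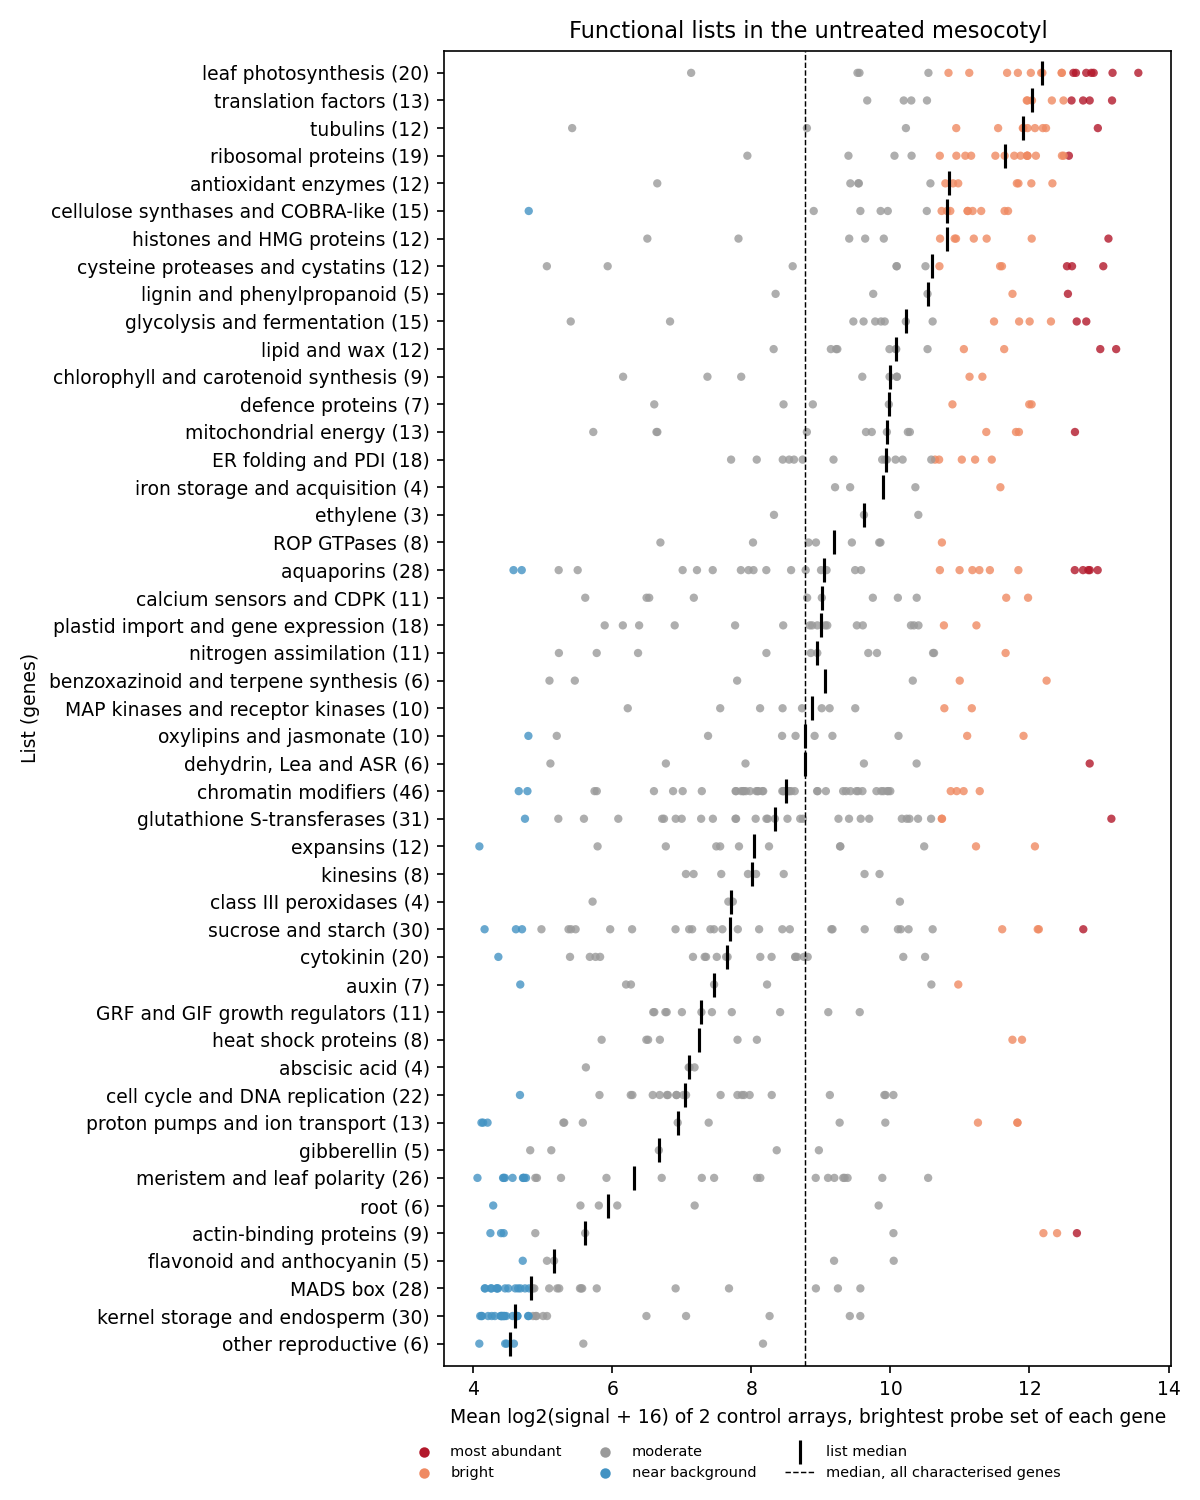
Mean log2(signal + 16) of each listed gene (x axis, brightest probe set, 2 control arrays) for the 47 lists (y axis, number of genes in parentheses), coloured by band, with list medians as vertical ticks and the median of all 972 characterised genes as a dashed line. Leaf photosynthesis and translation lie at the right, and the MADS-box, kernel and other reproductive lists at the left.

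Genes of leaf photosynthesis were the brightest list in these plants grown in darkness. Of its 20 genes, 7 were most abundant, 9 bright and 4 moderate, and none was near background. The 4 brightest were the antenna and photosystem genes Cab-m7, psaN, psaH and lhcb5, as given above. The oxygen-evolving complex gene PSBQ gave 6375/6288, the antenna genes lhcb6 and Lhcb5-2 gave 5234/6042 and 4788/4500.2, and the photosystem I gene psad1 gave 4316/4874. The photoprotection gene psbs1 gave 3880.4/4406. All of these were bright or above on both arrays.

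The list also held genes of carbon fixation. Phosphoenolpyruvate carboxylase pep1, which makes the first product of C4 fixation, gave 6604/7841, and PPDK, which regenerates its substrate, gave 5028/6330.0. The Rubisco small subunit ssu1 gave 6360.1/6628, and the Calvin cycle gene GAPA gave 3809/3463. NADP-malate dehydrogenase mdh6 gave 3160.0/3364 and NADP-malic enzyme me3 gave 1813/1808. Of the ferredoxin-NADP reductases, L-FNRII was bright (2059/2417) and L-FNRI moderate (665/814). The moderate members also included Rubisco activase rca1 (1414/1548), the cyclic electron flow gene pgr5 (816/638) and, lowest of the list, PPCK1, the kinase of phosphoenolpyruvate carboxylase (132/117).

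Together the 20 leaf genes held 0.891% of the summed signal on replicate 1 and 0.914% on replicate 2. The other lists chosen as markers of tissues other than the mesocotyl held far less. The 30 kernel genes held 0.0203% and 0.0192%, the 28 MADS-box genes 0.0226% and 0.0229%, the 6 root genes 0.0111% and 0.0106%, and the 6 other reproductive genes 0.0035% and 0.0027%. Most of the MADS-box signal came from m20, m21, zmm19 and m26, and whether these mark another tissue was not examined. None of the lists is specific to the mesocotyl, so the labelled tissue was checked only against these and against the growth genes described below. Whether other tissue took part in the signal of the leaf genes was not tested, and whether the plants met light at harvest is not stated in the labels.

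Among 13 translation factors, 4 were most abundant, 5 bright and 4 moderate. GOS2 and eif5a are given above, and the elongation factor gene elfa2 gave 6988/6961. The lowest member, the initiation factor subunit eIF3A, still gave 822/772. Of 19 ribosomal protein genes, 1 was most abundant, 14 bright and 4 moderate, with rps27 at 6082/6019, RPL10 at 5189/6355 and the acidic stalk protein rpp3 at 5699.5/5590.4. The lowest ribosomal gene was RPS10, at 192/275. Neither list had a member near background.

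Genes of the cytoskeleton and the cell wall ranged from the most abundant band to near background. Tubulins, the subunits of microtubules, had 1 most abundant, 8 bright and 3 moderate genes of 12. Below tua4 came the beta-tubulin tub7 (4275/5419.8) and the alpha-tubulin tua5 (4556/4773), and the lowest was the gamma-tubulin TUBG2, which acts where microtubules start (24.5/29.3). Of 15 cellulose synthase and COBRA-like genes, 9 were bright, 5 moderate and 1 near background. The COBRA-like gene Bk2L3 gave 3243/3341, and the cellulose synthases cesa7 and cesa5 gave 3309/3054 and 2482/2548. The COBRA-like Bk2L6 was at the limit, as described above.

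Expansins had a median percentile of 54.0, below the 65.9 of all characterised genes. Of 12 genes, 2 were bright, 9 moderate and 1 near background. The beta-expansins expB4 and expB8 gave 4762/3898 and 2293/2485, and the alpha-expansin expa1 gave 1643/1223. The dimmest of the 3 probe sets of expB8 gave 57.9/37.2, which is moderate, so its place depends on the probe set. By their brightest probe sets, expansins ran from the bright band down to lop1, near background. Lignin and phenylpropanoid genes had 1 most abundant, 1 bright and 3 moderate of 5. Phenylalanine ammonia lyase PAL1, which opens the pathway, was the brightest at 5920.3/6066, the cinnamyl alcohol dehydrogenase BM1 gave 3498/3386, and the cinnamoyl-CoA reductase cncr2 was lowest at 384/249. Class III peroxidases, which act in the wall, were all moderate (4 of 4), from PER42 at 1245/989, with pox1 at 176/219.9 and PER66 at 206/170.4, down to pox2 at 32.8/40.6.

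Aquaporins spanned the whole range. Of 28 genes, 5 were most abundant, 6 bright, 15 moderate and 2 near background. Besides PIP1-1, tip1 and tip2a, the most abundant members were the plasma membrane proteins pip1b (6857/7078) and pip2e (6177/6666). Near background were the tonoplast genes TIP5-1 (6.37/14.1) and tip2 (7.40/8.40). The median percentile of the list was 70.3, beside 65.9 for all characterised genes.

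Of the actin-binding proteins, ADF3, which severs actin filaments, gave 6580.0/6531 and was most abundant. The profilins PRO5 and PRO4, which bind actin monomers, gave 5554/5206 and 4636/4745 and were bright. Profilins PRO1, PRO2 and PRO3 gave 13.3/14.1, 8.01/3.53 and 36.4/29.4, and the actin-depolymerising factors adf2 and adf1 gave 5.85/4.37 and 5.56/0.701. In maize adf1, adf2 and the profilins PRO1 to PRO3 are known from pollen. Of the 9 genes, 3 were in the top 10%, 3 moderate and 3 near background. The moderate gene brk1 gave 928/1163.

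Kinesins, motor proteins of microtubules, were all moderate (8 of 8). KIN6 gave 905/899.7, KIN9 gave 816/736 and kin15 gave 332/343, with kin4 lowest at 110.5/124. Genes of ROP GTPases, which direct cell shape, had 1 bright and 7 moderate of 8, with rop2 at 1534/1871, rop4 at 914/908, rop5 at 876/924 and rop3 lowest at 106/71.3. Neither list had a member near background.

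**Figure D4:**
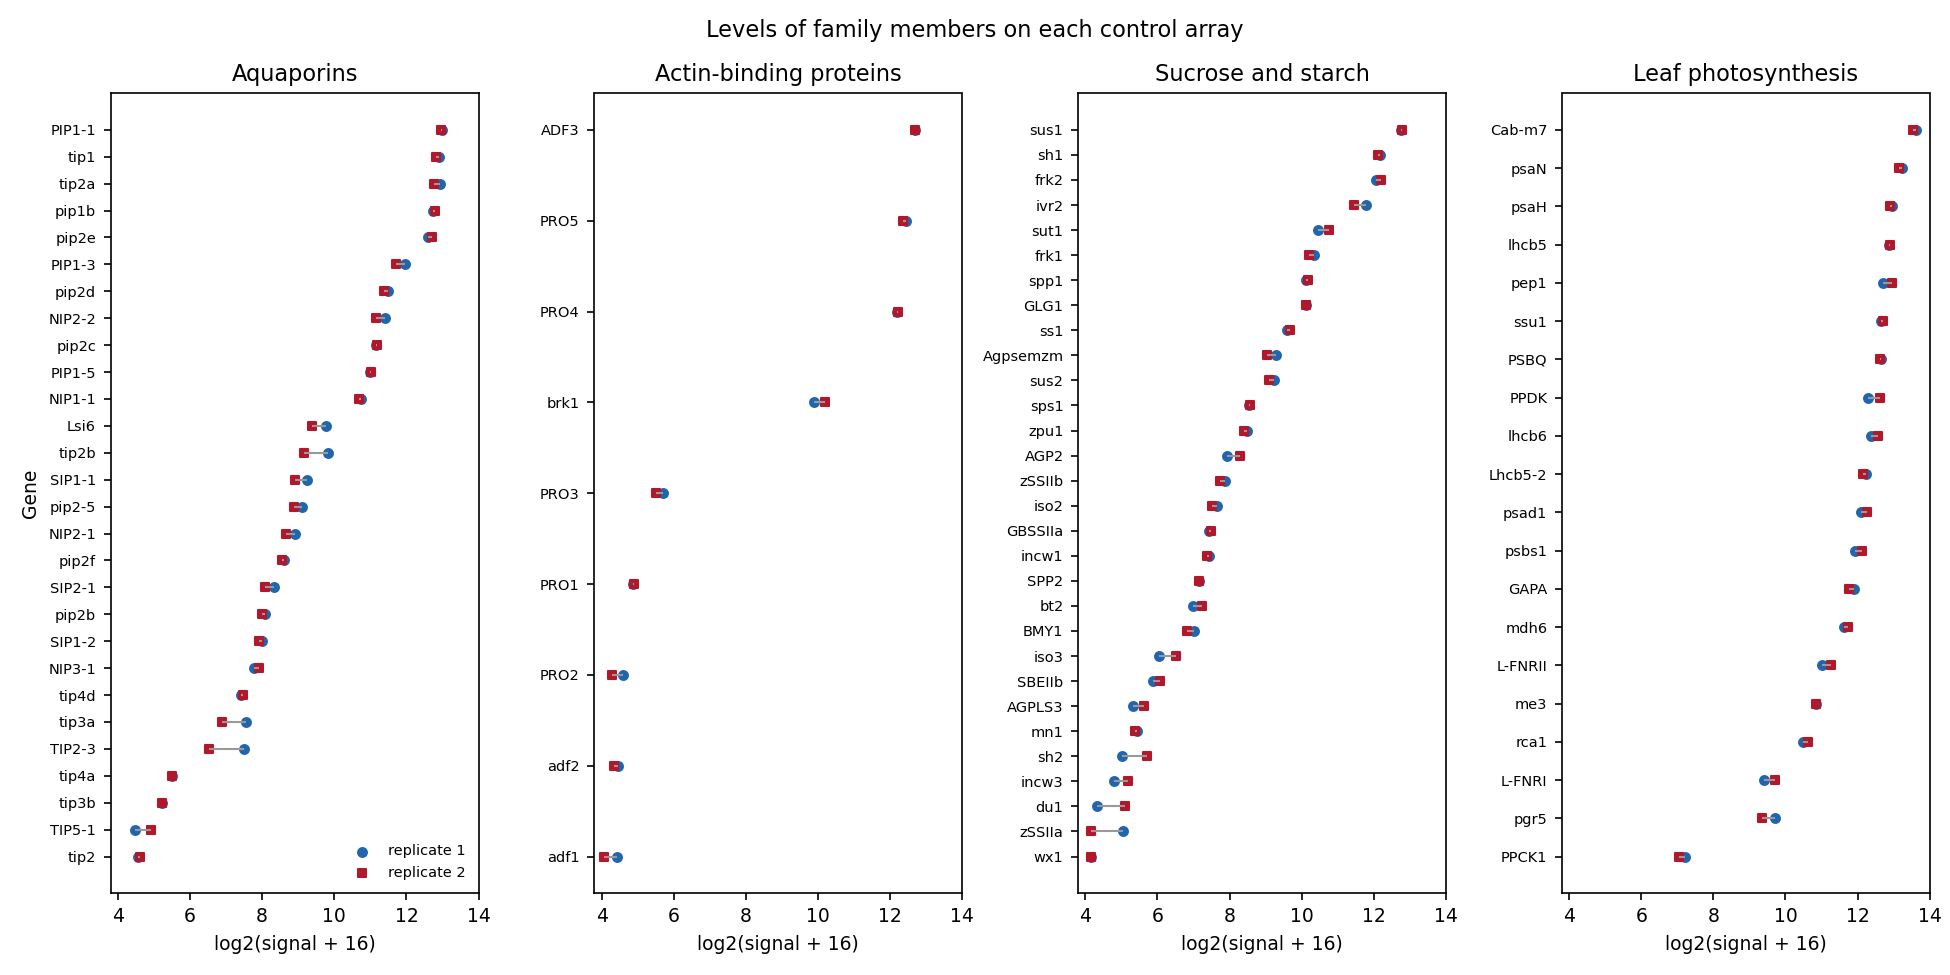
Level of each member of 4 lists (y axis, genes in order of level) as log2(signal + 16) (x axis) on control replicate 1 (circles) and replicate 2 (squares), joined by a line. The widest gap among the actin-binding proteins lies between brk1 and PRO3 (4.43 on the log2 scale), among the aquaporins between TIP2-3 and tip4a (1.51), and among the sucrose and starch genes between ivr2 and sut1 (1.00).

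Sugar metabolism was led by sucrose synthases, which cleave sucrose. Of 30 sucrose and starch genes, 1 was most abundant, 3 bright, 23 moderate and 3 near background. The sucrose synthases sus1 and sh1 gave 6906/7072 and 4576/4384, the fructokinase frk2 gave 4226/4645, and the vacuolar invertase ivr2 gave 3480.1/2769. Cell wall invertases were dimmer, at 157/151 for incw1, 26.9/25.9 for mn1 and 11.5/20.2 for incw3. Starch synthesis genes of the endosperm were also dim: sh2, a subunit of ADP-glucose pyrophosphorylase, gave 16.5/36.6, and the amylose synthase gene wx1, lowest in the list, gave 1.98/1.84. The sucrose transporter sut1 gave 1382/1724.

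Glycolysis and fermentation had 2 most abundant, 4 bright and 9 moderate genes of 15. The cytosolic glyceraldehyde phosphate dehydrogenases GPC1 and gpc2 gave 7214/7185 and 6547/6540.3, and aldolase1 gave 4937/5179. The alcohol dehydrogenases adh1 and adh2, which act when oxygen is short, gave 923/980.0 and 982/854 and were moderate. Of the pyruvate decarboxylases, pdc3 gave 754/781, pdc2 gave 84.4/113 and pdc1, lowest in the list, gave 37.3/17.5. By their brightest probe sets the 3 decarboxylases kept this order on both arrays. The dimmest probe set of pdc2 gave 1.77/1.58, below pdc1, so the order of these genes depends on the probe set.

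The list of mitochondrial energy genes had 1 most abundant, 3 bright and 9 moderate of 13. Malate dehydrogenase mdh5, its most abundant member, gave 6709/6161, and whether it encodes a mitochondrial form was not examined. The adenine nucleotide carrier ANT2 gave 3583/3760.2 and the ATP synthase subunit ATPB gave 3589/3539. Alternative oxidase aox1 was lowest at 34.5/39.5. Among nitrogen assimilation genes, with 1 bright and 10 moderate of 11, asparagine synthetase asn1 gave 3133/3293, the glutamine synthetases gln5 and gln1 gave the next highest means, gln1 at 1533/1567, and the nitrate transporter nrt2 was lowest at 26.3/17.3. Lipid and wax genes had 2 most abundant, 2 bright and 8 moderate of 12, with PLTP and plt2 followed by the acetyl-CoA carboxylase ACC1 (2921/3433) and with sqs1 lowest (291/317).

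The plastid lists other than the leaf list were mostly moderate, in a band that held 69.4% of all characterised genes. Chlorophyll and carotenoid synthesis had 2 bright and 7 moderate of 9. The magnesium chelatase gene oy1 gave 2494/2597 and crtRB1, a carotene hydroxylase, gave 1993/2511. The isoprenoid gene dxr gave 1132/1024, and phytoene synthase psy2 was lowest at 58.5/52.1. Plastid import and gene expression had 2 bright and 16 moderate of 18, with prpl35-1 at 2656/2163, the SecY translocase csy1 at 1601/1867 and tha4 at 1289/1389, and with tha8 lowest at 40.2/46.6.

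Hormone genes lay mostly in the moderate band, which held 69.4% of all characterised genes. All 5 genes of the gibberellin list were moderate. The copalyl diphosphate synthases an1 and CPPS2, of which an1 opens the gibberellin pathway, gave 459.8/513 and 332/296. Whether CPPS2 serves gibberellin synthesis was not examined. The P450 gene d3, which acts in the middle of the pathway, gave 75.2/97.5, and the ent-kaurene synthase eks1 gave 18.4/19.2. GA20, placed in the list by its name, gave 7.48/17.9 and was just above the limit. The median percentile of the 5 was 36.2, below the 65.9 of all characterised genes.

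Median percentiles were 78.9 for ethylene, 48.0 for cytokinin, 45.6 for auxin and 41.0 for abscisic acid genes. All but that of ethylene lay under the 65.9 of all characterised genes. Cytokinin genes had 19 moderate members and 1 near background of 20. The phosphotransfer genes HP1, hp2 and HP3, which relay the signal from receptor to response regulator, gave 1413/1448, 1242/1061 and 454/413, and the response regulator RR3 gave 5.07/4.03. Auxin genes had 1 bright, 5 moderate and 1 near background of 7: the auxin-binding proteins abp1 and abp4 gave 2163/1845 and 1605/1447, the nitrilase NIT1 gave 275/292 and yuc gave 15.2/4.91. Ethylene genes were all moderate (3 of 3), with the oxidases ACO31 and ACO20 at 1508/1184 and 787/754 and the receptor etr2 at 303/306. Abscisic acid genes were moderate too (4 of 4), with the aldehyde oxidases AO2 and AO1 at 151/110.0 and 109/137, vp14, which cleaves the carotenoid precursor, at 121/121, and the regulator vp1 at 40.5/26.8. Oxylipin and jasmonate genes had 2 bright, 7 moderate and 1 near background of 10, with the lipoxygenase lox1 at 4431/3333, allene oxide synthase aos1 at 1926/2478, opr5 at 1193/1003 and opr7 lowest at 11.7/11.7.

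Cell division genes were moderate in 21 cases of 22 and near background in 1. The replication clamp genes pcna2 and pcna1 gave 986/1094 and 987/910.5, the cyclin-dependent kinase gene cdc2 gave 1034/889, and the cyclin cycD1 gave 2.88/18.4. Histones and HMG proteins were brighter, with 1 most abundant, 6 bright and 5 moderate of 12. After MNB1b came the linker histone his1a (4453/3908) and HMGIY2 (2708/2606), and HMG11 was lowest (69.7/80.02). Chromatin modifiers, the longest list with 46 genes, had 4 bright, 40 moderate and 2 near background. The histone deacetylases hdt103 and hdt102 gave 2923/2101 and 2232/1991, the chromatin protein nfc102 gave 2094/1846, and the Polycomb gene fie1, known from endosperm, gave 11.1/7.42.

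Meristem and leaf polarity genes held no bright member: 17 of 26 were moderate and 9 near background. The MYB gene rs2, which represses meristem genes in leaves, gave 1603/1357, the leaf polarity gene rld1 gave 866/995 and the epidermal homeobox gene ocl1 gave 615/690.5. The meristem homeobox gene kn1 gave 283/246. All 11 growth-regulating factor and GIF genes were moderate, with GIF2 at 775/703, GIF3 at 526/545, GRF4 at 356/297 and GIF1 lowest at 76.7/83.9.

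Genes of MADS-box transcription factors, known mainly from flowers, were near background for 14 of 28 and moderate for 14. The brightest were m20 at 699/789, m21 at 612/570.1 and zmm19 at 460.3/482. Next came m26 at 193/185 and AGAMOUS at 111/98.3. The others were at or under a mean signal of 39.02: zmm29, m5, m25, zmm16, zap1, Silky1, zmm2, ZAG1 and m28 above the limit, and zmm31, m4, zmm14, zag2, m1, m15, M7, M8, ZAG3, zmm17, ZAG5, zmm27, zmm6 and zmm24 near background. The lowest, zmm24, gave 1.97/1.90.

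Kernel genes were near background for 20 of 30. The exceptions well above the limit were meg6 (677/814), the Opaque2-related regulators ohp2 and ohp1 (759.8/585 and 299/283), the gamma-zein gz27 (116/119) and betl4 (90.9/59.6). For gz27 this depends on the probe set, since its dimmest gave 12.9/6.18 and was near background. ESR1c1, the endosperm regulator o2, glb3, meg2 and the oleosin ole1 were moderate and close to the limit, with o2 at 18.9/13.5. The near background genes included the globulins glb1 and glb2, the endosperm regulator PBF, the transporter bt1, the zeins z1C1_4, z1C2, z1C1_20, z1C1_12, z1D_2, dzs18 and gz50, and the transfer layer and embryo-surrounding genes betl1c, betl2, betl3, bap-1a, bap-3a, bap-3b, ebe1, ebe2 and esr2. The highest of these 20 was glb1, at 12.6/11.02.

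The 6 root genes had 5 moderate members and 1 near background. The phosphate transporter pht1 gave 887/902, zrp4 gave 145/115, and the iron uptake genes nas1 and ys1 gave 53.7/48.8 and 49.5/31.8. The transporter pht7 gave 32.1/29.1 and the nicotianamine synthase nas2 gave 1.90/5.27. Of the 6 other reproductive genes, ts2, which acts in the tassel, gave 299/246 and zfl1 gave 41.2/24.1. The pollen and male genes PG2C, pgl1, mgs1 and mgs2 were near background, PG2C at 5.19/11.2.

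Antioxidant enzymes had 7 bright and 5 moderate of 12: the catalase CAT3 gave 4924/5347, the superoxide dismutase Sod4A gave 4041/4276 and the thioredoxin trxh2 gave 4149/3216, while the catalase cat2 gave 87.9/80.5. Of 31 glutathione S-transferases, 1 was most abundant, 2 bright, 27 moderate and 1 near background. After gst1 came gst3a at 1930.4/1491 and gst10 at 1739/1645, and gst32 was lowest at 15.8/6.55. The whole list had a median percentile of 58.7.

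Dehydrin, Lea and ASR genes, which accumulate under water deficit, had asr1 in the most abundant band and the other 5 moderate, with dhn2 at 1199/1439, rab17 at 719.7/824 and EMB5 lowest at 24.7/13.3. Heat shock genes had 2 bright and 6 moderate of 8. The chaperones hsp70-5 and hsp70-4 gave 3965/3614 and 3514/3367, hsp101 gave 255/254 and the small heat shock gene hsp18c gave 51.5/32.98. Folding genes of the endoplasmic reticulum had 5 bright and 13 moderate of 18, with calnexin CNX at 2906/2690.1, calreticulin crt2 at 2485/2253, pdi7 at 2061/2079 and pdi5 lowest at 170.1/219.

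Defence proteins had 3 bright and 4 moderate of 7, with the proteinase inhibitor wip1 at 4456/3897, the chitinase chn1 at 4143/3997, pr5 at 2050.0/1731 and hm1 lowest at 98.03/66.9. Benzoxazinoid and terpene genes had 2 bright and 4 moderate of 6. The benzoxazinoid genes bx6 and bx1 gave 4858/4827 and 2010.1/2045, while the terpene synthases tps6 and stc1 gave 1062/1502 and 21.9/14.9. Of the cysteine proteases and cystatins, 3 of 12 were most abundant, 3 bright and 6 moderate, and besides ccp1 these were the protease ccp2 at 6238/6249 and the cystatin psei1, an inhibitor of such proteases, at 6167/5714. The gene cc3 was lowest at 22.04/13.2.

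Of 13 proton pump and ion transport genes, 3 were bright, 7 moderate and 3 near background. The pumps vpp3 and vpp1 of the vacuole gave 3338/3918 and 3721/3513, and the plasma membrane proton pumps mha4 and mha1 gave 2223/2665 and 101/113, the first bright and the second moderate. The exchangers NHX5, NHX3 and NHX6 were the 3 near background, NHX5 at 3.29/1.64. Iron storage and acquisition genes had 1 bright and 3 moderate of 4, with the ferritins fer1 and fer2 at 3135/2964 and 1267/1328, IDI2 at 751/596 and DMAS1 at 489/672.

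Signalling lists were moderate for most members, in a band that held 69.4% of all characterised genes. Calcium sensors had 2 bright and 9 moderate of 11, with the calmodulins CaM1 and CaM2 at 3931/4115 and 3272/3193, annexin1 at 1386/1246 and the protein kinase cdpk14 lowest at 23.9/43.9. MAP and receptor kinases had 2 bright and 8 moderate of 10, with ZmMPK5 at 2258/2320.2, mek1 at 1773/1701, serk2 at 653/762 and serk1 lowest at 60.6/56.7. Flavonoid and anthocyanin genes had 4 moderate and 1 near background of 5: the structural genes a2 and f3h gave 1006/1079 and 607/531, while the regulators c1 and pl1 gave 9.50/34.2 and 5.82/15.4.

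The level of a gene depended on the probe set that read it. Of 183 characterised genes with several probe sets, 87 had all of them in 1 band. The median range between the brightest and dimmest probe set of a gene was 1.60 on the log2 scale, and it was over 1 for 117 genes and over 3 for 62. In 13 genes the brightest probe set was bright or most abundant and the dimmest near background. The widest range was that of TCTP, 9.0, whose dimmest probe set gave 1.76/4.80. It was 8.82 in grp1, 8.79 in PLTP, 8.13 in elfa2 and 8.06 in lhcb6, whose dimmest probe sets gave 8.83/2.43, 2.27/10.3, 1.16/20.5 and 6.09/4.30. The arrays agreed within each of these brightest probe sets to 1.15-fold or better, so the range lay between probe sets and not between arrays. Wide ranges were also found for sh1 (7.85), pip2e (7.84) and PPDK (7.59). Their dimmest probe sets gave 1.53/5.67, 11.6/12.7 and 18.9/8.85.

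**Figure D5:**
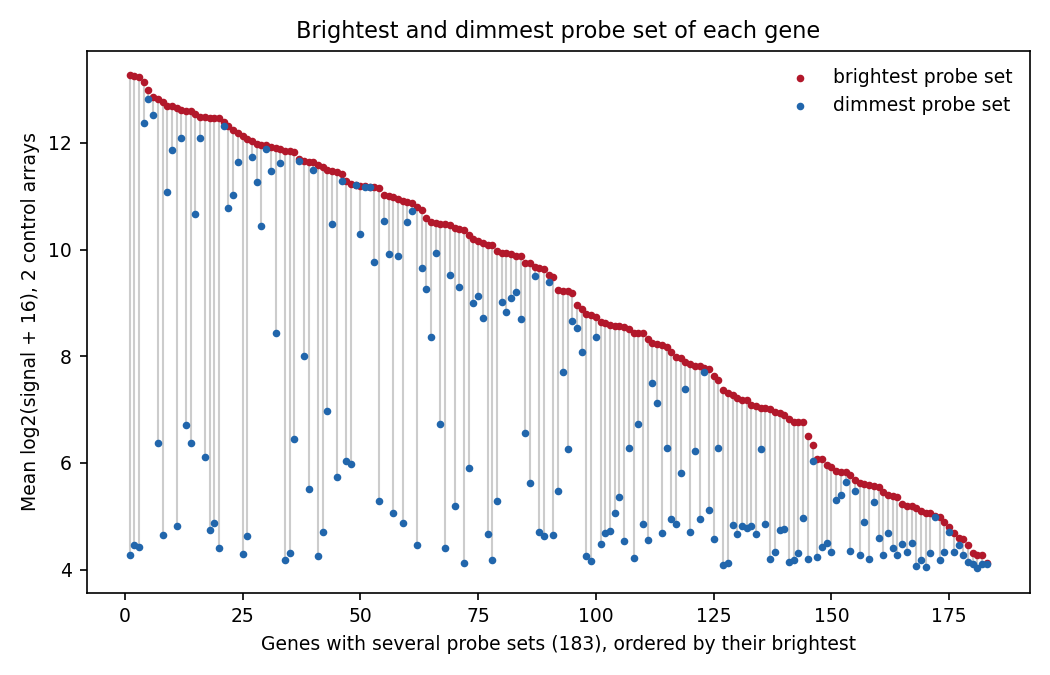
Mean log2(signal + 16) over the 2 control arrays (y axis) of the brightest and the dimmest probe set of each of 183 characterised genes with several probe sets (x axis, in order of the brightest). Bright genes with a dimmest probe set near background stand out as long lines, among them TCTP with a range of 9.0.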

How the data were processed

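Signals of 2 control arrays were used. The deposited values are linear probe-set intensities, made with GCOS and MAS5 per the submitters' processing notes, whose versions, settings and genome build the sources used here do not give. Before deposit the authors had scaled each array: after trimming extremes, the mean intensity was 500.1 on both. No detection calls were used, so background was read from reporter probe sets. Signals were transformed to log2(signal + 16), averaged and ranked in Python 3.11.15 with pandas 2.3.3 and numpy 2.4.6, correlations were computed with scipy 1.17.1, and figures were drawn with matplotlib 3.10.9. The calculation was checked on simulated data, built from these same 2 arrays with less noise than lay between them. Such a check does not measure the precision of the ranks. There was 1 group, so no test was made, and no replicate pairing could enter.

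The platform annotation linked probe sets to gene identifiers, and these to names. Of the 1108 genes, 1060 were found in the RefSeq table of Zm-B73-REFERENCE-NAM-5.0, which served for names only. The genes named by rule (282) were the 20 brightest, the 10 nearest the median above the limit, the 10 lowest, the highest 3 and the lowest of each list, all gibberellin and other-tissue genes, the 10 with the largest difference between arrays and the 5 whose probe sets differed most. Further genes, such as those at the edges of a band and other family members, were chosen for naming with their values in view. The genes, lists and bands were chosen with earlier results of these data known. Sequences were not analysed here. Alternatives varied the added constant, the scaling, the background limit, the averaging, the probe set per gene and the arrays used.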

Additional observations from a re-analysis of the deposited data

How the results depend on the processing

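The count of probe sets at least 2-fold apart between the arrays depended on the constant added to the signal: it was 294 with 16, 1768 with 1 and 117 with 64. Scaling to the poly-A control probe sets gave 458, and leaving out the ZmAffx probe sets, a choice made after the data were seen, gave 140. The count near background depended on the limit: against 2855 it was 991 with the median reporter probe set as the limit and 17537 with the highest, which is 1 bright reporter. With 2 limits chosen after the data were seen it was 5269 (the second highest reporter) and 3197 (the 95th percentile of the manufacturer's tag controls). Taking the top 2% in place of the top 1% gave 60 most abundant named genes in place of 39. On replicate 1 or 2 alone the near background count ranged from 3074 to 3189, the named genes in the top 1% from 40 to 42, and the lists with their median in the top 10% from 7 to 9. With the median probe set of a gene in place of the brightest, 5 lists in place of 7 had their median in the top 10%, and the median percentile of the defence proteins moved by 16.04, the most of any list. Median centring and quantile normalization moved none of these counts by over 1.5 times, nor did ranking by the mean of linear signals for the 3 counts it was run on (near background, named genes in the top 1%, lists). With a replicate left out, the percentile of lg1 moved by up to 10.5 and that of ZAG1 by up to 8.86, the most of the 282 named genes. No paired analysis was possible because there was 1 group and no test. The planned comparison of sequence features between bands was not run, since no sequences were analysed here. Signal over background limits all genes near 12.1, where the 2 arrays often fall on different sides of the limit.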

Other observations

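Of the 972 characterised genes, 332 were in no list, and 7 of these were most abundant: TCTP, grp1, umi11, sam2, the ferredoxin gene fdx3 (6619/6647), the bZIP gene OBF1 (6339/5956) and GRP (6107/5910.3). Further bright genes outside the lists, named after their values were seen, came from several functions. The triose phosphate translocator gene TPT gave 5149/5574, the beta-glucosidase glu1, which releases active benzoxazinoids, gave 5337/4743, and RGP, a reversibly glycosylated polypeptide linked to wall polysaccharide synthesis, gave 4845/4482. The blue light receptor gene nph1, which the gene table also lists as phot1, gave 1273/1370.0 and was moderate. Signals for these genes differed between the arrays by less than 2-fold.

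Of the 972 genes, 158 had a signal of at least 2000 on both arrays.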
